A study of Homo sapiens with 8 samples.

Results

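The genes described here are the gene models of human chromosome 20, taken in order of position. They number 505 of the 512 chromosome 20 models and of the 18638 models counted in all. The members are all chromosome 20 models except ribosomal protein, RNA polymerase and NADH dehydrogenase genes, ACSS2, TOP1, SRSF6 and TRIB3, which removed 7 models. Of the members, 171 lay on the short arm and 334 on the long arm, divided at the widest stretch without a member, 5560759 bp long, which ends at DEFB115. The set was selected on the HCT116 comparison, in which the log2 fold changes of chromosome 20 genes stood apart, so the HCT116 values below are a description with no test of the members.

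Nascent RNA was measured in 8 libraries, 2 for each of 4 groups, from DLD-1 and HCT116, both established lines of human colorectal cancer. It was prepared by factory-seq, in which RNA held at sites of transcription is released from nuclei by caspases. DLD-1 cells carried mAID and mClover on POLR2A, the gene of the largest RNA polymerase II subunit, with a doxycycline-inducible OsTIR1, and were either untreated or given 500 µM auxin for 14 h after 24 h of doxycycline. HCT116 cells carried mAID on TOP2A in both groups, and the second group was also TOP2B-/-. Auxin destroys an mAID-tagged protein in cells that make TIR1. Titles call the TOP2B-/- libraries controls, whereas their treatment field gives 14 h of auxin, and the protocol adds the same 500 µM and 24 h of doxycycline to such cells, so genotype, auxin and doxycycline cannot be told apart in HCT116. The labels name no clone, and a difference between cell clones cannot be told apart from either. Nothing in them says that the libraries of a group came from separate cultures, so the p-values measure only the spread between these libraries.

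Chromosome 20 is a small, gene-rich human chromosome. Its long arm is often gained in colorectal cancer, and it holds genes of cell division, RNA processing and protein turnover beside clusters of tissue-restricted genes such as the beta-defensins, cystatins, BPI fold and WFDC proteins. Nascent RNA is read across introns as well as exons, and its amount follows both the number of gene copies and the transcription of each copy. In bulk libraries scaled to their totals, fewer copies per cell and less RNA per copy cannot be told apart.

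Library totals ran from 10739622 to 62626875 reads in DLD-1 and from 32129400 to 36491540 in HCT116. Levels are given as CPM, read counts scaled to the library total with a TMM factor. Markers of epithelial cells summed to between 2475 and 6901 CPM in the 8 libraries. Markers of other cell types summed to between 6.63 and 144 CPM, with the high end in auxin-treated DLD-1, where PECAM1 alone reached 97.6 CPM. Not every epithelial marker was high. In HCT116, VIL1, CLDN3 and CDX2 stood at 5.55 CPM or less, below COL1A1 of the other list at 24.6 to 46.6 CPM. In auxin-treated DLD-1, CLDN3 stood at 0.99 and 1.02 CPM, CDX2 at 7.66 and 5.45 CPM and CLDN4 at 10.6 and 7.41 CPM. These and VIL1 lay below PECAM1 at 97.6 and 72.5 CPM, whereas EPCAM, CDH1, KRT8 and KRT18 lay above it. POLR2A, whose protein is the target in DLD-1, stood at 281 and 180 CPM in controls and 159 and 108 CPM after auxin. TOP2B stood at 186 and 192 CPM in HCT116 controls and 135 and 132 CPM in the TOP2B-/- libraries, and reads over a whole gene span do not check which part was deleted. Reads over genes silent in the other line would, if spread over all genes, make up 2.24% and 9.02% of DLD-1 control counts but 39.5% and 59.6% after auxin, against 0.256% to 3.03% in HCT116.

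The promoters of 4 of the lowest members are shown because they place these genes in sequence. ID1, NCOA5 and CEBPB were among the 5 lowest genes of DLD-1, and LAMA5 was the lowest of HCT116, in each case with a mean CPM of at least 5. They were chosen after seeing which starts in RefSeq (GRCh38.p14) lay within 50 bases of the start of the counted model. Each runs 5′ to 3′ from 250 bases before the start to 50 after. Capitals mark matches on either strand, which may overlap, to the TATA box (TATAAA), the CCAAT box (CCAAT), the GC box (GGGCGG), the E-box (CACGTG) and the AP-1 element (TGACTCA).
ID1: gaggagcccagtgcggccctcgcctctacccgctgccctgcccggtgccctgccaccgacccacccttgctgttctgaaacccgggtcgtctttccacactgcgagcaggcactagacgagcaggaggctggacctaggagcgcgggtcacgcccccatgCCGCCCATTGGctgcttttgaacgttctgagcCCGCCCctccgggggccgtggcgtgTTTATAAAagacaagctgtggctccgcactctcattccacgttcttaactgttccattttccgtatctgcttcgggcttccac
NCOA5: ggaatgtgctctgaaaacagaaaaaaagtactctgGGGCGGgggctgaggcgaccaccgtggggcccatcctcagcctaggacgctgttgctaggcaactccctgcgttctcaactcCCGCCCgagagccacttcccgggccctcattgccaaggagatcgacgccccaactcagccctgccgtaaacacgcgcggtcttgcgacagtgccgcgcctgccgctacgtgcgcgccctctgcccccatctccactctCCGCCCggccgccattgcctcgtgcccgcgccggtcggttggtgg
CEBPB: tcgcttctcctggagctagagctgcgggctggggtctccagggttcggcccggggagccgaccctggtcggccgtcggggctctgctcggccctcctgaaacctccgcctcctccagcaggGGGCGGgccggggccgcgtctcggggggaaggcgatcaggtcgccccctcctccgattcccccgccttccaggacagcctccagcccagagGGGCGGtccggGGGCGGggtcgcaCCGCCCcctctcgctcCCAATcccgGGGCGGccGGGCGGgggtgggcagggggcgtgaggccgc
LAMA5: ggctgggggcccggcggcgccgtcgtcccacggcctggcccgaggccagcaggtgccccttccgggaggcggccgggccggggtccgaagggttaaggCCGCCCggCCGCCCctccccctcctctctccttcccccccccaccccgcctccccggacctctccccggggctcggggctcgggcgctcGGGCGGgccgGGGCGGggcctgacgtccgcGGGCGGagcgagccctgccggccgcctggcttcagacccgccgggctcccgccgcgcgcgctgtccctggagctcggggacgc
These windows are chr20:31605039-31605338 on the plus strand for ID1, chr20:46089913-46090212 on the minus strand for NCOA5, chr20:50190333-50190632 on the plus strand for CEBPB and chr20:62367263-62367562 on the minus strand for LAMA5. GGGCGG or its complement occurred in all 4, TATAAA in ID1, and CCAAT in ID1 and CEBPB. GGGCGG was in 58.6% of the 345 member promoters matched by symbol and in 44.6% of all 27305 promoters. The latter are not limited to the 18638 counted models, so these shares and the GC medians below compare unlike sets. For TATAAA the shares were 7.83% and 12.0%, for CCAAT 31.9% and 35.7%, for CACGTG 8.70% and 7.43%, and for TGACTCA 1.74% and 4.92%. GC content was 62.7% in ID1, 66.3% in NCOA5, 77.0% in CEBPB and 82.7% in LAMA5, beside medians of 65.3% in members and 58.3% in all promoters. A match describes letters only.

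In HCT116, chromosome 20 took a smaller share of the reads in both TOP2B-/- libraries. Members held 3.26% and 3.33% of reads in the controls and 2.22% and 2.21% in the TOP2B-/- libraries. The short arm held 1.06% and 1.05% against 0.736% and 0.741%, and the long arm 2.20% and 2.28% against 1.49% and 1.46%. Both arms were therefore lower in both TOP2B-/- libraries, and the groups did not overlap. In DLD-1 the members held 1.95% and 1.94% of control reads and 1.90% and 2.03% after auxin, so these groups overlapped. The widest 95% Wilson interval for the members ran from 2.02% to 2.04% and covers counting error only.

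**Figure D1:**
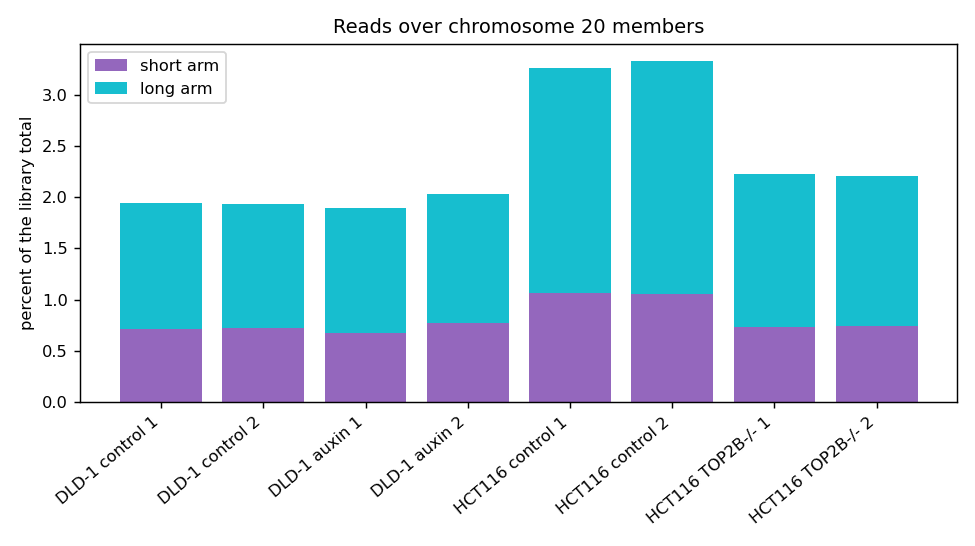
Percent of the reads of each of the 8 libraries that lay over short-arm (purple) and long-arm (cyan) members of chromosome 20, stacked. The HCT116 controls reach 3.26% and 3.33%, and the other 6 libraries lie between 1.90% and 2.22%.

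Most members with reads were lower in the TOP2B-/- group. In the 398 members tested, the median log2 fold change was -0.56, a ratio of 0.679, and 326 lay below 0. By edgeR's quasi-likelihood test with Benjamini-Hochberg adjustment over all 15273 genes, 130 members were called lower and 0 higher, and 269 had an unadjusted p under 0.05. Over all genes 1.66 percent were called lower and 1.75 percent higher, 3.41 percent in all. DESeq2 called 262 members lower and 2 higher on the same genes, and 243 and 1 without a count filter. Of the 12016 genes that kept an adjusted p it called 15.2 percent lower and 12.3 percent higher. Without the filter it called 8.76 and 6.52 percent of the 12105 that did. With background density subtracted, edgeR called 257 members lower and 2 higher, beside 8.42 and 8.56 percent of all genes. With TOP2B-/- 1 or TOP2B-/- 2 left out the edgeR calls were lost, and both arm medians stayed below 0. With the replicate number as a block edgeR called 0 members, with 244 at an unadjusted p under 0.05. Shares over all genes at an unadjusted p under 0.05, or with the block, are not given here. These counts repeat the choice of the chromosome and are read no further. In 302 members both TOP2B-/- libraries lay below both controls and in 6 above, beside 27.6 percent of all genes each way. The 4 pairings of single libraries gave medians between -0.59 and -0.51, whereas control 2 minus control 1 gave 0.08 and the TOP2B-/- pair -0.01.

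The lower level was shared by genes of very different abundance. In the 293 members with a mean CPM of at least 5, the median was -0.59, 281 lay below 0, and 64.5% lay within 0.2 of the median. Divided into 4 classes of like size by level, the members gave medians of 0.17, -0.58, -0.59 and -0.59 from the least to the most abundant. Genes of other chromosomes in the same level ranges gave 0.56, -0.01, -0.02 and 0.02. The least abundant class thus lay above 0 but below its counterparts elsewhere, and its pairings ran from -0.60 to 0.84. In the most abundant class, 81.0% of members lay within 0.2 of the median and the interquartile range was 0.15. Medians by strand were both -0.59. Divided into 3 classes by span, the shortest gave -0.75, the middle -0.58 and the longest -0.55, and control 2 minus control 1 moved with them at 0.23, 0.12 and 0.00. The part of that difference in the result was not tested.

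**Figure D2:**
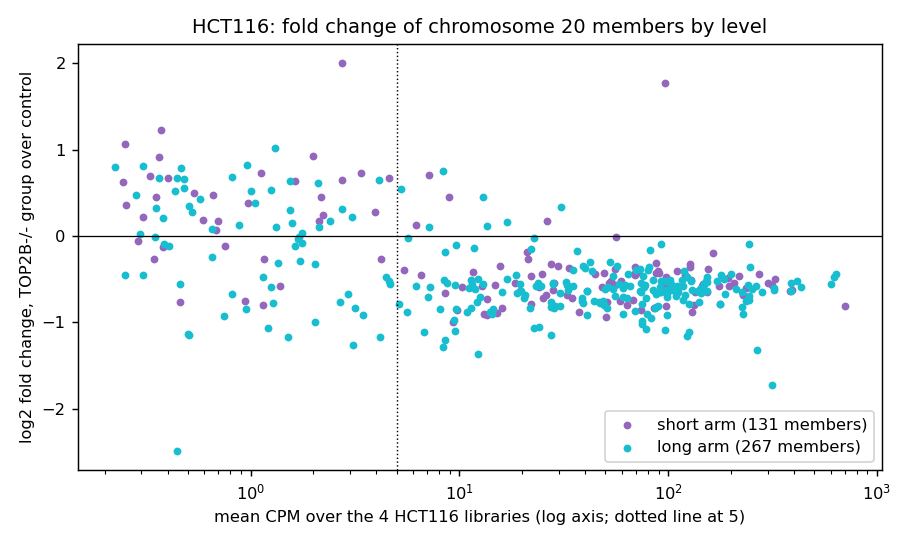
Log2 fold change of each tested chromosome 20 member in HCT116 against its mean CPM, on a log axis, coloured by arm. Members right of the dotted line at 5 CPM gather around -0.59, and those left of it scatter on both sides of 0.

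Window medians were alike over most of the length of the chromosome and lower at the end of the long arm. The short-arm median was -0.46 in 131 tested members and the long-arm median -0.58 in 267. With a mean CPM of at least 5 they were -0.55 and -0.62. Of the 12 windows of 5 Mb with at least 10 tested members, 11 had a median below every one of 474 windows of other chromosomes, the lowest of which was -0.38. The exception, from ANKEF1 to FLRT3 on the short arm, had a median of -0.18 in 13 members and -0.38 in the 8 with a mean CPM of at least 5. At the long-arm end, from C20orf197 to PCMTD2, the median was -0.78 in 49 members. There the pairings ran from -1.01 to -0.53, control 2 minus control 1 was 0.22, and TOP2B-/- 2 minus TOP2B-/- 1 was -0.23. Members of that window with a mean CPM of at least 5 had a median span of 17.8 kb and a median promoter GC content of 76.0%, beside spans of 21.4 to 53.5 kb and GC contents of 62.3% to 75.3% in the other windows. The part of these properties in the lower median was not tested.

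**Figure D3:**
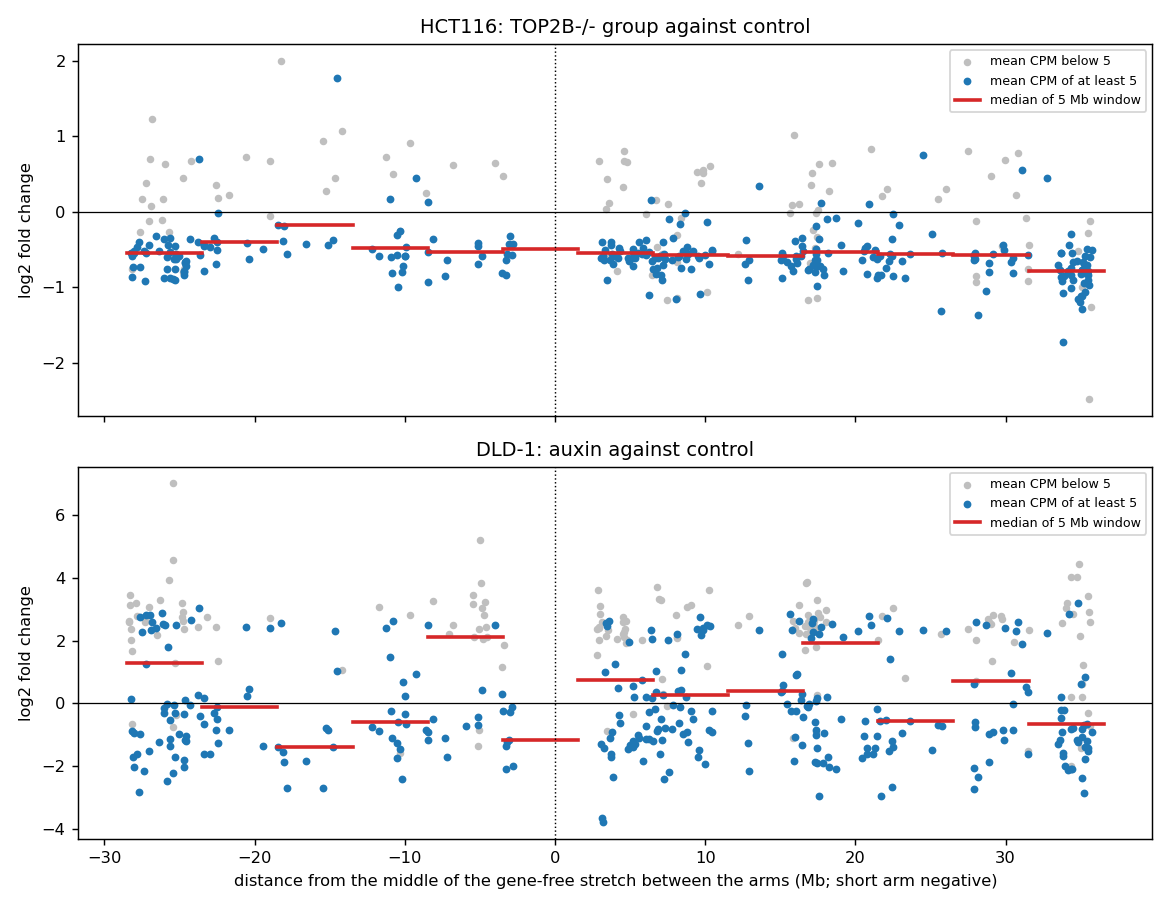
Log2 fold change of each tested member by its distance in Mb from the middle of the stretch without members between the arms, HCT116 above and DLD-1 below, with the median of each 5 Mb window in red. HCT116 window medians lie between -0.78 and -0.18, and DLD-1 window medians between -1.38 and 2.13.

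**Figure D4:**
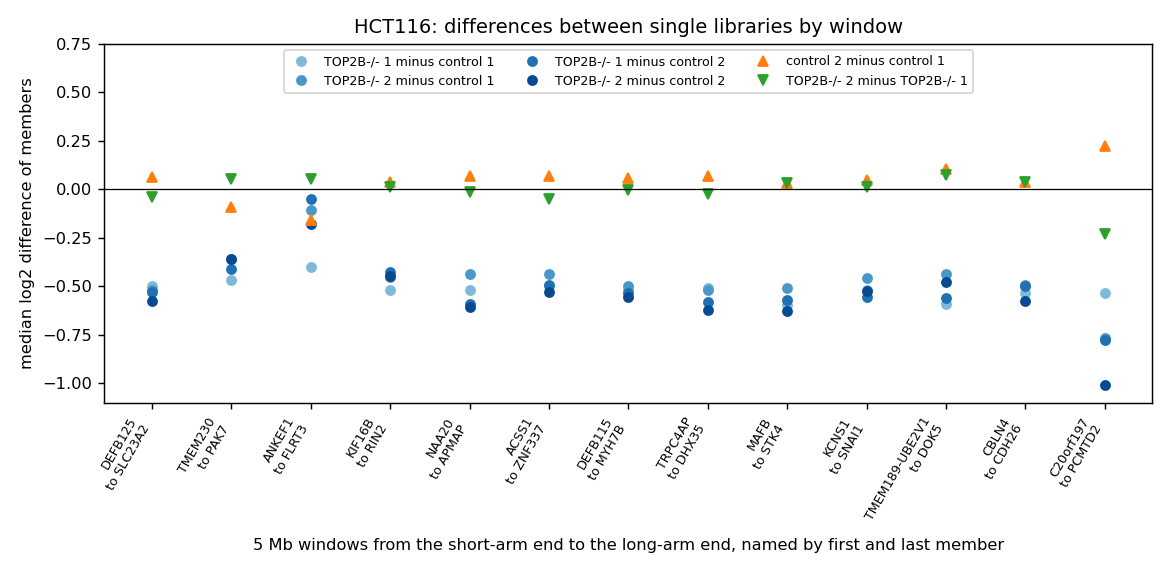
Median log2 difference of members in each 5 Mb window of HCT116 for the 4 pairings of a TOP2B-/- with a control library (blue) and for the pairs of replicates (orange and green). The replicate differences stand furthest from 0 in the last window, at 0.22 and -0.23.

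The first and last well-read genes of each arm show the extent. C20orf96, near the short-arm end, stood at 21.3 and 22.3 CPM in controls and 15.2 and 14.7 CPM in TOP2B-/- libraries. ZNF337, the last of the short arm and named as a zinc finger gene, stood at 99.0 and 103 CPM against 73.8 and 76.0 CPM. HM13, a signal peptide peptidase and the first of the long arm, stood at 245 and 269 CPM against 171 and 164 CPM. All 3 were lower in both TOP2B-/- libraries. PCMTD2, the last of the chromosome, stood at 12.7 and 13.9 CPM against 9.65 and 9.06 CPM. The log2 fold changes were -0.55 (SE 0.09) in C20orf96, -0.43 (SE 0.05) in ZNF337, -0.62 (SE 0.06) in HM13 and -0.51 (SE 0.12) in PCMTD2.

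Genes used in every dividing cell were lower in HCT116, as were other well-read members. Both TOP2B-/- libraries were below both controls for all 16 members of a list of cell cycle and DNA replication genes, all 21 of RNA processing and all 21 of protein turnover and trafficking. Their medians were -0.58, -0.64 and -0.62, beside 0.03 over all genes tested. The 293 members with a mean CPM of at least 5 gave -0.59. In 93.5% of those 293, both TOP2B-/- libraries lay below both controls, as they did in 27.6 percent of all genes. The lists are thus near the share and median of the chromosome. AURKA, a mitotic kinase, stood at 101 and 119 CPM in controls and 73.6 and 73.0 CPM in the TOP2B-/- libraries. CSE1L, a nuclear export factor for importin-alpha, stood at 458 and 520 CPM against 340 and 339 CPM. RBM39, a splicing factor, stood at 690 and 743 CPM against 484 and 492 CPM. The groups did not overlap for any of the 3. ITCH, a ubiquitin ligase, stood at 729 and 722 CPM against 522 and 520 CPM. CENPB, a centromere protein, stood at 17.6 and 23.6 CPM against 12.2 and 10.8 CPM. CRNKL1, a splicing factor of the short arm, stood at 62.9 and 70.0 CPM against 36.6 and 32.9 CPM, a log2 fold change of -0.94 (SE 0.09). It is the lowest of the RNA processing list, and its groups did not overlap.

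Regulators and signalling genes were lower as well, with more spread. Of 30 tested transcription factors and coregulators, 28 lay below 0, with a median of -0.57. Of 23 signalling and adhesion genes, 20 did, with a median of -0.56. CHD6, a chromatin remodeler, stood at 346 and 338 CPM in controls and 219 and 219 CPM in TOP2B-/- libraries. PLCB1, a phospholipase and 1 of the 4 longest well-read members, stood at 517 and 436 CPM against 309 and 308 CPM. In a list of genes proposed as targets of long-arm gain in colorectal cancer, 19 of 20 lay below 0, with a median of -0.57. BCL2L1, which encodes the survival protein BCL-XL, stood at 516 and 527 CPM against 355 and 340 CPM, a log2 fold change of -0.59 (SE 0.04). B4GALT5, a galactosyltransferase of the metabolism list, stood at 390 and 383 CPM against 260 and 250 CPM. Both lay at about the median of the chromosome. In the metabolism list, 20 of 22 lay below 0. Of all tested members 81.9% lay below 0, and 95.9% of those with a mean CPM of at least 5. Over all genes tested the share was 45.5%. The 4 lists are thus near the share of the chromosome.

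Some long-arm genes went well below the rest. LAMA5, a laminin chain of basement membranes, stood at 439 and 530 CPM in controls and 178 and 115 CPM in TOP2B-/- libraries, a log2 fold change of -1.72 (SE 0.25). TFAP2C, an AP-2 transcription factor, stood at 16.8 and 18.7 CPM against 7.08 and 6.68 CPM, -1.36 (SE 0.13). CYP24A1, the enzyme that breaks down active vitamin D, stood at 358 and 407 CPM against 154 and 153 CPM, -1.32 (SE 0.08). The groups were well apart for these. ARFGAP1, a regulator of Golgi transport, stood at 157 and 183 CPM against 84.6 and 67.9 CPM. ADRM1, a ubiquitin receptor of the proteasome, stood at 92.5 and 121 CPM against 57.7 and 43.2 CPM. SRMS, a tyrosine kinase, was also among the 5 lowest, at -1.28 (SE 0.21). In all, 15 members with a mean CPM of at least 5 lay below -1, all on the long arm, and 9 of them lay in the last window. Of the 293 members at that level, 198 lay on the long arm and 42 in the last window. The median span of the 15 was 9981 bp, beside 30772 bp for the 293. Control 1 over control 2 ran from 0.63 in PPDPF to 0.98 in BMP7. The part of span and of the difference between controls in these values was not tested.

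Few members were higher. Of the 293 with a mean CPM of at least 5, 12 lay above 0, and their median span was 289196 bp, beside 30772 bp for the 293. In 7 of the 12, control 1 was more than 2 times control 2. They were the only 7 of the 293 with that difference. MACROD2, the longest member, stood at 80.6 and 7.02 CPM in controls and 131 and 167 CPM in TOP2B-/- libraries. TSHZ2, PHACTR3, SLC24A3, CDH4 and PTPRT are long genes of the same kind, and in PTPRT, a receptor phosphatase, the values were 53.2 and 1.04 CPM against 22.2 and 46.2 CPM. For these 5 the groups overlapped. RASSF2, a RAS-binding protein, was higher in both TOP2B-/- libraries with like controls, at 5.20 and 5.64 CPM against 8.50 and 9.18 CPM, a log2 fold change of 0.71 (SE 0.15). The others above both controls were GGT7, at 0.16, and BFSP1, at 0.17, both named after their values were seen.

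Members with few reads in DLD-1 were compared with silent genes elsewhere. For the 85 members among the lowest 20% in reads per kb in DLD-1 controls, the median density was 1.72 and 1.81 times that of such genes on other chromosomes in the HCT116 controls and 1.07 and 1.09 times in the TOP2B-/- libraries. The ratio was higher in both controls. In control 2 it rests on a median of 0.145 reads per kb, 20 of the 85 had 0 reads, and other autosomes ran from 0.384 to 4.81, so the value lies inside their range. In control 1 other autosomes ran from 0.809 to 1.39. The ratio of summed reads over the same genes was 6.02 and 7.30 in controls and 3.78 and 3.29 in TOP2B-/- libraries, and includes CYP24A1 and NTSR1, which HCT116 cells transcribe. NTSR1, the neurotensin receptor, stood at 715 and 750 CPM in HCT116 controls and 567 and 512 CPM in the TOP2B-/- libraries. In DLD-1, over a different 85 members chosen in the same way from the HCT116 controls, the ratio of medians was 1.07 and 1.01 in controls and 0.994 and 0.928 after auxin.

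After auxin in DLD-1, chromosome 20 genes were called about as often as genes elsewhere. Of 487 members tested, 173 were called higher and 161 lower, 334 in all, by edgeR's quasi-likelihood test with Benjamini-Hochberg adjustment. Over all 17625 genes 32.2 percent were called higher and 35.0 percent lower, 67.3 percent in all, so the share of members is near the background. Both auxin libraries lay below both controls in 209 members and above in 241, beside 46.3 and 44.7 percent of all genes. Higher and lower in DLD-1 are relative to the rest of each library. TMM factors were 0.776 and 0.828 in controls and 1.21 and 1.28 after auxin, and no absolute amount can be read from these values. Scaled by library totals alone, 222 members were called higher and 87 lower, beside 42.8 and 19.2 percent of all genes, and the median of all genes moved from -0.06 to 0.57. Fewer members were called with either auxin library left out, fits for which the share over all genes is not given here. The median log2 fold change was 0.22 in members and -0.07 on other chromosomes, 0.10 on the short arm and 0.28 on the long arm. It followed level: the 4 classes from the least to the most abundant gave 2.60, 1.31, -0.62 and -1.02, and genes elsewhere in the same ranges 2.45, 0.96, -0.47 and -0.93. With the background density subtracted, 371 members were tested, 87 were called higher and 122 lower, beside 27.7 and 32.0 percent of all genes, and the median was -0.44. The background reads, at 2.24% to 59.6% of counts, moved with auxin, and their part in single values is given where it changed a call.

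The genes that fell furthest in DLD-1 differed in how much was left after auxin. BCL2L1 stood at 525 and 416 CPM in controls and 37.4 and 31.0 CPM after auxin, a log2 fold change of -3.78 (SE 0.23, adjusted p = 0.00421). ID1, an inhibitor of basic helix-loop-helix factors, stood at 66.1 and 72.8 CPM against 6.44 and 4.51 CPM, -3.66 (SE 0.26, adjusted p = 0.00421). Both genes lie near the start of the long arm and had no overlap between groups. NCOA5, a nuclear receptor coregulator, stood at 77.7 and 74.3 CPM against 8.82 and 10.6 CPM, -2.97 (SE 0.20, adjusted p = 0.00421). With background subtracted it had 3740 and 2187 reads in controls and 10 and 0 after auxin, so its auxin reads lay near the background density. CEBPB, a leucine zipper transcription factor, stood at 25.1 and 36.9 CPM against 4.41 and 3.63 CPM, -2.94 (SE 0.32, adjusted p = 0.00474). ARFRP1, a small GTPase, fell by 2.86 (SE 0.36, adjusted p = 0.00597), but it overlaps a gene on the other strand, and its adjusted p was 0.071 with background subtracted. The promoters of ID1, NCOA5 and CEBPB are those printed above.

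**Figure D5:**
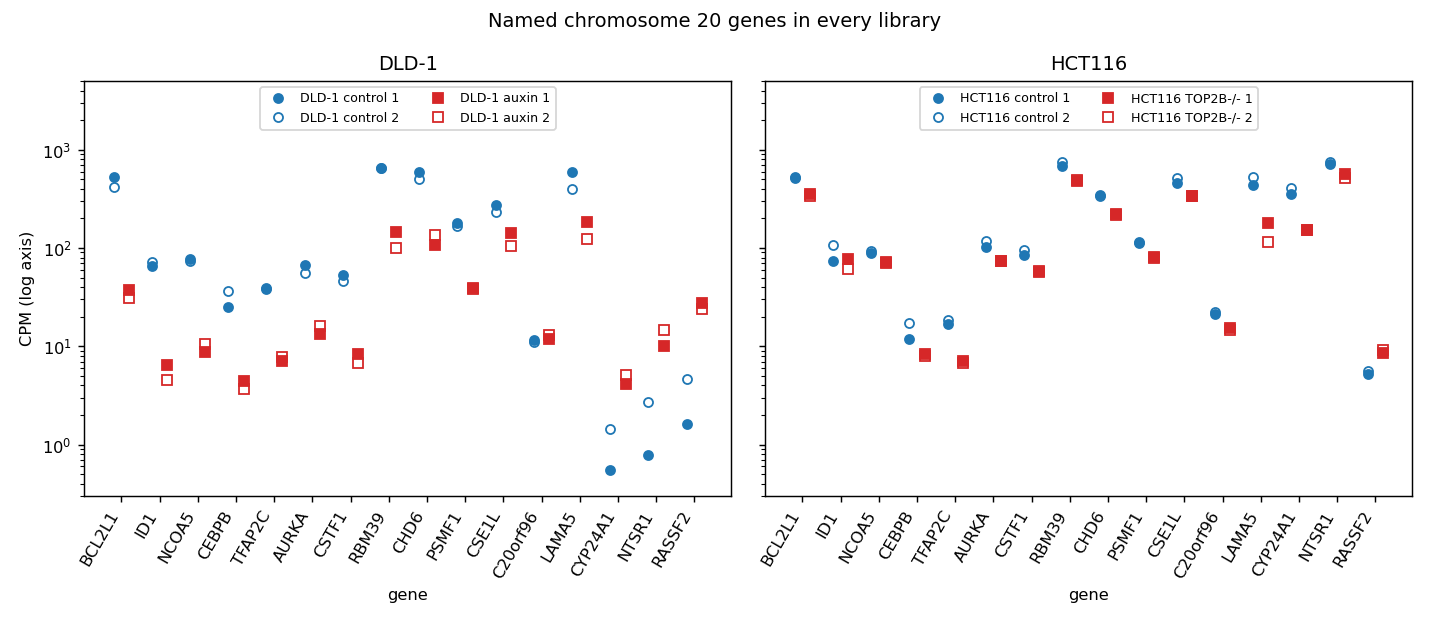
CPM of 16 named chromosome 20 genes in the 4 DLD-1 (left) and 4 HCT116 (right) libraries on a log axis, controls in blue and auxin or TOP2B-/- libraries in red. BCL2L1 goes from 525 and 416 to 37.4 and 31.0 CPM in DLD-1 and from 516 and 527 to 355 and 340 CPM in HCT116.

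The lists of genes used in dividing cells fell in large part. Of 16 cell cycle and DNA replication genes, 13 were called lower and 1 higher, with a median of -1.28. Of 21 RNA processing genes, 17 were called lower and 0 higher, with a median of -1.02, and of 21 in protein turnover and trafficking 13 and 0, with a median of -1.11. Over all genes 35.0 percent were called lower, and 62.1% of genes elsewhere in the most abundant range. The median of all genes tested was -0.06, but those abundant genes lay at -0.93. With background subtracted the calls were 8 lower and 2 higher, 11 and 1, and 9 and 6, and the medians -0.61, -0.52 and -0.38. CSTF1, a polyadenylation factor, stood at 53.2 and 46.6 CPM in controls and 8.36 and 6.76 CPM after auxin, -2.72 (SE 0.23, adjusted p = 0.00421). AURKA, its neighbour on the other strand, stood at 66.5 and 55.8 CPM against 13.2 and 15.9 CPM, -2.07 (SE 0.21, adjusted p = 0.00449). Both fell with no overlap. RBM39 stood at 653 and 657 CPM against 145 and 101 CPM, -2.41 (SE 0.24, adjusted p = 0.00437). PSMF1, a proteasome inhibitor, stood at 179 and 166 CPM against 38.8 and 37.9 CPM, -2.17 (SE 0.16, adjusted p = 0.00421). CSE1L and CRNKL1 fell by 1.04 and 0.90, and with background subtracted the values were 0.06 and 0.10.

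Regulators moved in both directions. Of 31 transcription factors and coregulators, 17 were called lower and 5 higher. Of 23 signalling and adhesion genes, 9 were called lower and 7 higher, of 23 metabolism genes 8 and 5, and of 20 candidates of long-arm gain 15 and 1. The shares in signalling and metabolism are near the 35.0 percent lower and 32.2 percent higher of all genes. With background subtracted the calls were 21 lower and 4 higher, 7 and 6, 5 and 8, and 11 and 4 in the same order. More metabolism genes were thus called higher than lower. Yet the median of that list went from -0.02 in 23 genes to -0.33 in the 20 still tested. The difference between lists was not tested. CHD6 stood at 587 and 507 CPM against 108 and 135 CPM, -2.17 (SE 0.21, adjusted p = 0.00421). TFAP2C stood at 38.0 and 38.9 CPM against 7.08 and 7.85 CPM, -2.37 (SE 0.21, adjusted p = 0.00421). LAMA5 stood at 598 and 399 CPM against 186 and 123 CPM, -1.69 (SE 0.32, adjusted p = 0.0147), and its adjusted p was 0.0604 with background subtracted. All 3 were lower in both auxin libraries. C20orf96, at 11.6 and 11.1 CPM against 11.8 and 13.1 CPM, was not called (adjusted p = 0.649).

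Genes with few reads in DLD-1 controls lay on the higher side, relative to the rest of each library. Of 21 tested nerve cell genes, 18 were called higher and 0 lower. In the clusters, 8 of 13 beta-defensin, 6 of 11 cystatin, 4 of 8 BPI fold and 6 of 10 WFDC genes were called higher and 0 lower. Their medians, 2.33 to 2.57 with the nerve cell genes, are near the 2.45 of genes elsewhere in the lowest level range, of which 51.6% were called higher. With background subtracted, 3 of 8 nerve cell genes that could still be tested were called higher, 3 of 7 beta-defensin, 2 of 5 cystatin with 1 lower, 0 of 1 BPI fold and 3 of 8 WFDC genes. COL20A1, a collagen, stood at 1.30 and 2.49 CPM in controls and 20.1 and 14.4 CPM after auxin, 3.20 (SE 0.47, adjusted p = 0.00819). RASSF2 stood at 1.63 and 4.61 CPM against 27.6 and 24.0 CPM, 3.06 (SE 0.57, adjusted p = 0.0142). TGM3, a transglutaminase, JPH2, a junctophilin, and NTSR1 followed at 2.90, 2.86 and 2.84. COL20A1 and NTSR1 had too few reads to be tested once background was subtracted. MACROD2, PHACTR3, CDH4 and SLC24A3, called higher at 1.02, 1.90, 2.24 and 0.95, turned negative with it.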

How the data were processed

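Per the labels, nascent RNA was prepared by factory-seq and libraries with a TruSeq RNA kit. The authors deposited raw read counts per RefSeq gene model for each cell line, over the gene span. In 43 members the counted length was below the span. The submitters' processing notes name STAR, DESeq2 and hg38. How the counter was set and whether it used strand was not given in the sources used here. Of the members, 12 overlap a model on the same strand and 60 on the other. The counted length leaves out the shared stretch in same-strand pairs such as VPS16 (23498 of 26036 bp) and PTPRA (171937 of 174475 bp). PCED1A, which overlaps VPS16 on the other strand, was counted over all 5929 bp. Whether reads of genes that overlap on opposite strands were kept apart was not tested. The authors also deposited comparison tables with log2 fold changes, p-values and a normalized signal, which were not used. The accompanying paper covers a different experiment and supplied no design or value.

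Samples were grouped by their labels, the TOP2B-/- group by genotype. Each line was fitted on its own 4 libraries with edgeR 4.0.16 in R 4.3.3. Settings were filterByExpr, TMM and a two-sided quasi-likelihood test, with Benjamini-Hochberg adjustment at 0.05 and 2 residual degrees of freedom. The fitting code was first run on simulated counts with a fixed dispersion, which does not check the spread of these libraries. Of the members, 487 passed the filter in DLD-1, 398 in HCT116 and 16 in neither. Standard errors came from the F statistic. Pairings of libraries used log2(CPM + 0.5). Arms were divided at 28000000, and windows of 5 Mb needed 10 tested genes. Background density was the median over the 20% of models of at least 5000 bp with the fewest reads per kb in the controls of the other line, per chromosome. Alternatives were DESeq2 1.42.0, other scalings and filters, left-out libraries, replicate blocks and background subtraction.

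The members and lists were chosen with earlier results of these data known. Named genes were the 5 highest and 5 lowest per line with a mean CPM of at least 5, the first and last of each arm, the most abundant and most changed of each list, and the 4 longest. Gene clusters were given by counts. A gene that this rule names is not reported here. A crossed block and DESeq2 without a count filter were added after seeing the data.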

Additional observations from a re-analysis of the deposited data

How the results depend on the processing

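In HCT116 both arm medians stayed below 0 under all 14 alternatives, whereas the number of members called, 130, did not hold. It was 264 with DESeq2 and 244 with DESeq2 without a count filter. The dispersion trend took a local form in the first of these and a parametric one in the second, and both are given because the choice between them was not made beforehand. Background subtraction gave 259, a floor of 5 on mean CPM gave 222, and leaving out 1 library gave 0 to 241. The short-arm median of -0.46 was -0.46 with DESeq2 and with RLE scaling, -0.42 with DESeq2 without a count filter, -0.53 with background subtracted and with the floor of 5 CPM, -0.43 with library totals alone, -0.41 with no count filter, -0.49 with scaling outside chromosome 20, and -0.57 to -0.49 with 1 library left out. The long-arm median of -0.58 was -0.62 with scaling outside chromosome 20 and -0.64 to -0.58 with 1 library left out.

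In DLD-1, 334 members were called. Background subtraction gave 209, a floor of 5 on mean CPM gave 216, and leaving out 1 library gave 53 to 372. The short-arm median of 0.10 and the long-arm median of 0.28 were 0.19 and 0.37 with DESeq2 and with RLE scaling, 0.23 and 0.43 with DESeq2 without a count filter, 0.73 and 0.92 with library totals alone, 0.17 and 0.37 with no count filter, -0.15 and -0.18 with the floor of 5 CPM, and -0.43 and -0.44 with background subtracted. They ran from 0.0077 to 0.14 and from 0.32 to 0.35 with 1 library left out. With background subtracted, named genes of DLD-1 changed sign: MACROD2 at -14.97, PLCB1 at -14.60, PHACTR3 at -10.59, CDH4 at -8.77, SLC24A3 at -1.63, CRNKL1 at 0.10 and CSE1L at 0.056. MACROD2, PLCB1, PHACTR3 and CDH4 had 0 reads left in both auxin libraries after the subtraction, so their fitted values depend on the prior count and are no measure of size. Over all named values under the alternatives, these included, 462 of 539 in DLD-1 and 368 of 535 in HCT116 kept direction and call.

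The labels number replicates 1 and 2 in every group, and the differences between replicates correlated at 0.57 in DLD-1 and -0.83 in HCT116. Only a number is shared. With the replicate block, 371 members were called in DLD-1 and 0 in HCT116, where the short-arm median was -0.45 and 244 members had an unadjusted p under 0.05. DESeq2, run without a block, called 264. A crossed block gave 220 and 230, with a short-arm median of -0.45 in HCT116. Shares over all genes with either block are not given here. With 2 libraries a group, the spread rests on 2 residual degrees of freedom. At 10739622 reads, the shallowest library had 3 members without a read.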
